A study of Mus musculus with 70 samples.

Results

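Fatty acid uptake and storage were followed through 9 genes that take up, bind, esterify, coat, release and oxidise fatty acids: Cd36, Lpl, Fabp4, Fabp5, Dgat1, Dgat2, Plin2, Lipa and Cpt1a. They were chosen by name from this pathway, each matched 1 ID of the count table, and they are 9 of the 21865 protein-coding genes found there. All libraries came from 5 male mice that carried the Foxp3tm4(YFP/icre)Ayr allele on a B6.129(Cg) background, aged 16.6 to 18.6 weeks, in which the Foxp3 locus drives a yellow fluorescent protein fused to Cre and so marks regulatory T cells (Tregs). Every group carried this allele. CD4+ YFP+ cells were sorted as ST2+ CD44hi and ST2- CD44hi Tregs (here ST2+ and ST2- Tregs) from 6 tissues: the blood, the spleen, the lungs, the visceral adipose tissue of the abdomen (VAT), the colon and the skin of the back. CD4+ cells of spleen and lungs were enriched on magnetic beads before the sort, and VAT, lungs, colon and skin were digested with enzymes. ST2- CD44lo CD62L+ (central) Tregs were sorted as well, from spleen and lungs, which gave 14 groups. ST2, encoded by Il1rl1, is the receptor of the cytokine IL-33. Of 70 libraries of 55 to 220 cells, each from 1 mouse, 67 held more than 1000000 counts and were used. Of those used, 7 came from fewer than 220 cells. VAT ST2- libraries of mice 2 to 5 came from 93, 192, 118 and 135 cells, while all VAT ST2+ libraries came from 220. Blood ST2+ libraries of mice 2 and 3 came from 202 and 55 cells, and the blood ST2- library of mouse 1 from 166. Blood ST2+ Tregs kept 4 libraries, colon ST2+ Tregs 3 and the other 12 groups 5.

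Cells gain fatty acids from lipoproteins and from the fluid around them. LPL frees them from triacylglycerol in lipoproteins, CD36 carries them across the plasma membrane, and FABP4 and FABP5 hold them in the cytosol. DGAT1 and DGAT2 catalyse the last step of triacylglycerol synthesis, and PLIN2 coats the lipid droplets in which triacylglycerol is kept. LIPA frees fatty acids in the lysosome, and CPT1A passes them to the mitochondrion for oxidation. Tregs of VAT are known for expression of PPAR-gamma, a lipid-responsive nuclear receptor, and for uptake of lipid. Adipocytes, endothelial cells and macrophages express several of these genes strongly as well, so RNA from those cells could enter a sorted library.

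The members differed in the tissue where they were high. Dgat1 was higher than in the spleen in Tregs of lungs, VAT, colon and skin, Dgat2 was highest in skin, Plin2 and Cpt1a were higher in VAT, and Lipa was highest in blood ST2- Tregs. Cd36, Fabp4 and Lpl were at or near 0 in spleen and blood, and Fabp4 and Lpl in lungs as well. In most groups of the other tissues they were very uneven between libraries. VAT ST2+ Tregs differed in that every library held Cd36 and Fabp4. Values are counts per 1000000 counts of a library (CPM), scaled by TMM factors. A member was called where the fold change was at least 1.5 and the Benjamini-Hochberg adjusted p of edgeR's quasi-likelihood test was at most 0.05 over the 13173 genes tested. All 9 members were among the genes tested.

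Against spleen ST2+ Tregs, 6 of 9 members were called in VAT ST2+ Tregs, where 11.2% of all genes were called, and all 6 were higher. Higher as well were the 4 members called in skin (background 29.1%), the 4 in colon (10.4%) and the 2 in lungs (4.87%). In blood, 1 member was higher and 1 lower (background 4.11%). The median log2 fold change of the 9 members was 2.22 in VAT and 3.01 in skin, beside -0.01 and -0.01 over all genes. Both medians stayed the same with members at 0 in the spleen set to the bound that 3 counts over the group give.

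Against spleen ST2- Tregs, 5 members were called in VAT ST2- Tregs, all higher, with 5.78% of all genes called. In skin, 6 were higher and 1 lower (background 30.9%). The median log2 fold change of the 9 members was 1.51 in VAT and 3.22 in skin, with 0 over all genes in both. In colon 3 were higher (11%), and 1 was higher in lungs (4.03%) and in blood (3.38%). Between ST2+ and ST2- Tregs of the same tissue, 2 members were called in lungs, where 0.782% of all genes were, and 1 in VAT (3.12%). None was called in blood (4.04%), spleen (0.319%), colon (0.0683%) or skin (0.213%). An unadjusted p under 0.05 was found there for 3 members and 2476 of the 13173 genes in blood, for 2 and 680 in spleen, for 2 and 664 in colon and for 0 and 1114 in skin. Comparing ST2- CD44hi with central Tregs, 1 member was called in spleen (5.03%) and 1 in lungs (5.53%). Between central Tregs of lungs and spleen none was called (3.16%), with 1 member and 1945 genes at an unadjusted p under 0.05. The tissue by ST2 interaction called 1.43% of all genes and none of the members.

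Totals of the 67 libraries ran from 1304560 to 2759926 counts, with a median of 2039002. Foxp3 had counts in all 67 libraries, at 105 to 414 CPM. Il1rl1 was at 230.0 to 1614 CPM in ST2+ libraries and at 0 to 195 CPM in ST2- libraries. Lists of marker genes of other cell types were summed per library. Colon ST2+ libraries stood apart, since all 3 held 1325 to 1604 CPM of macrophage and monocyte markers, against 0 to 235 CPM in the other 64 libraries. In 5 libraries the endothelial sum was over 3 times the median of the group, which were VAT ST2- of mouse 3, colon ST2- of mice 2 and 3, skin ST2- of mouse 2 and skin ST2+ of mouse 3. Skin libraries held 72.7 to 2114 CPM of keratinocyte markers. In bulk RNA of this kind, more cells of a type and more RNA per cell cannot be told apart. Libraries of 1 mouse share an animal, and member results that change with mouse as a replicate block are given with that value. Genes that are not members were read from the main fit only.

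The triacylglycerol synthesis enzymes were the members with the highest mean levels per length of annotated exons over all 67 libraries. This length joins all annotated exons of a gene and can exceed that of the transcript made, so the ranking holds for this length only. It was 3056 bases for Dgat1, 3083 for Dgat2, 3512 for Plin2, 3567 for Fabp5, 6780 for Lipa and 7642 for Cpt1a. On the scale of CPM per kilobase of exon (RPKM), the mean level over 67 libraries was 90.2 ± 73.9 RPKM (SD) for Dgat1 and 41.3 ± 80.5 RPKM for Dgat2, against 31.7 ± 42.2 for Plin2 and at most 18.3 for each other member. The rank of Dgat2 was not that of each group. Its group means were 279 and 156 RPKM in skin ST2+ and ST2- Tregs and 1.42 to 30.2 RPKM elsewhere. Dgat1 and Dgat2 are unrelated enzymes for the same reaction, which joins an acyl chain to diacylglycerol. Dgat1 (ENSMUSG00000022555, chromosome 15, 76502015 to 76511953, minus strand, GRCm38) was counted in all 67 libraries and Dgat2 (ENSMUSG00000030747, chromosome 7, 99153658 to 99182719, minus strand, GRCm38) in 63.

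Dgat1 was higher in lungs, VAT, colon and skin than in the spleen, most so in skin. In ST2- Tregs it was at 91.6, 77.4, 84.3, 59.3 and 81.5 CPM in the spleen of mice 1 to 5, at 140.4, 286, 210.5, 160.2 and 182 CPM in lungs and at 149, 227, 265, 251 and 236 CPM in VAT. Every lung and VAT library lay above every spleen library. In colon the 5 values were 383, 527, 335, 314 and 443 CPM and in skin 682, 642, 829.1, 733 and 791 CPM. The lowest skin value thus exceeded the highest colon value. Against spleen the difference in ST2- Tregs was called in lungs (log2 fold change 1.31, SE 0.25, adjusted p = 2.00e-04), in VAT (log2 fold change 1.51, SE 0.25, adjusted p = 1.41e-05), in colon (log2 fold change 2.34, SE 0.26, adjusted p = 1.85e-10) and in skin (log2 fold change 3.22, SE 0.26, adjusted p = 1.74e-15). Blood ST2- Tregs, at 74.4 ± 50.5 CPM (SD, n = 5), did not pass the test (adjusted p = 0.969).

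In ST2+ Tregs the same 4 tissues stood above the spleen, where Dgat1 was at 72.7, 108, 90.9, 54.7 and 103 CPM. The values were 260.2, 419, 215, 292 and 305 CPM in lungs, 376, 361, 465.6, 422 and 384 CPM in VAT and 608, 789, 651, 765 and 644 CPM in skin, with 421, 328 and 442 CPM in the colon of mice 1, 3 and 4. None of these libraries overlapped the spleen. The calls were in lungs (log2 fold change 1.79, SE 0.25, adjusted p = 3.07e-07), VAT (log2 fold change 2.22, SE 0.26, adjusted p = 7.12e-10), colon (log2 fold change 2.21, SE 0.28, adjusted p = 2.23e-08) and skin (log2 fold change 3.01, SE 0.26, adjusted p = 1.87e-14). All 8 of these Dgat1 calls were kept under every alternative that gave a value. Of the 13 steps between groups next to each other in the order of mean log2 CPM, 1 differed for Dgat1, from skin ST2+ down to VAT ST2+ Tregs, although 63 of all 91 pairs of groups did.

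**Figure D1:**
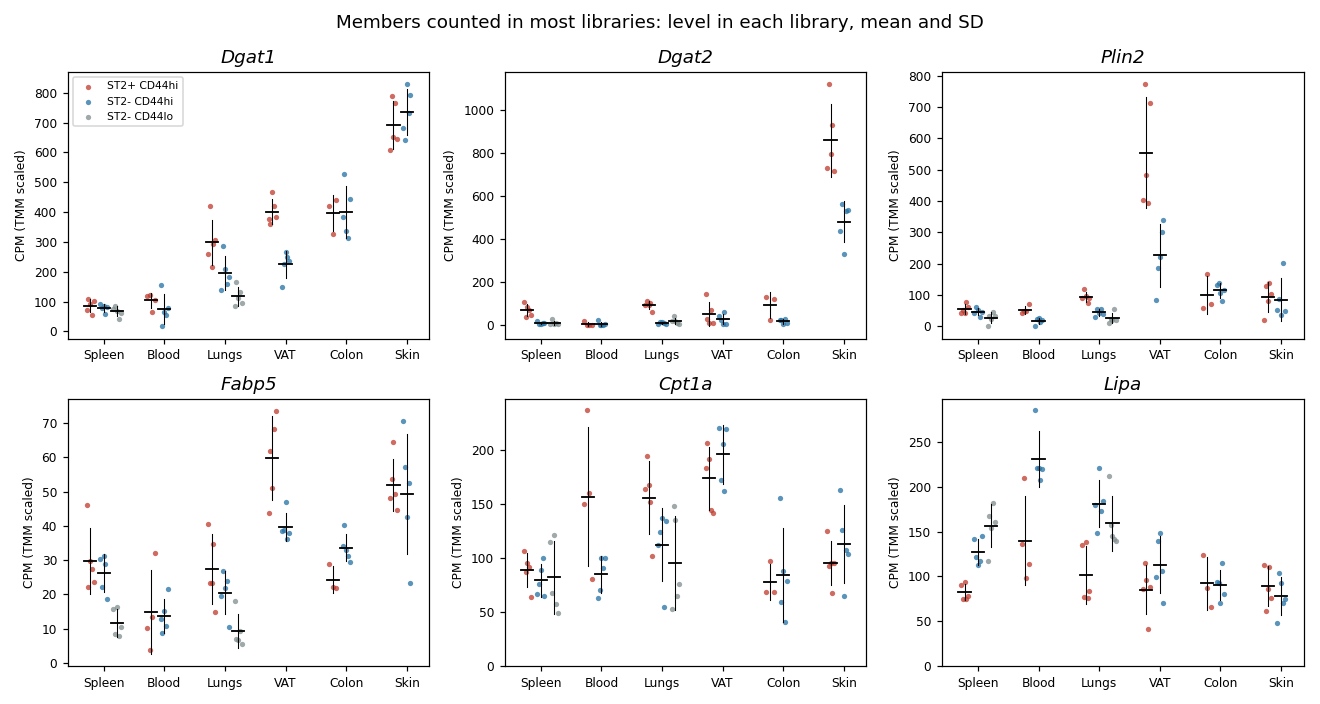
Level in each library (points, TMM-scaled CPM) of Dgat1, Dgat2, Plin2, Fabp5, Cpt1a and Lipa by tissue and population, with the mean (horizontal line) and SD (vertical line) of each group. Dgat1 has a mean of 78.8 CPM in spleen ST2- Tregs and of 736 CPM in skin ST2- Tregs, every skin library lies above all others for Dgat2, and Plin2 is highest in VAT ST2+ Tregs.

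Dgat2 marked skin Tregs. In skin it was at 732, 1123, 798, 934 and 718 CPM in ST2+ and at 437, 563, 332, 531 and 535 CPM in ST2- Tregs of mice 1 to 5. The highest value of the other 57 libraries was 143 CPM, below every skin library. Spleen ST2- Tregs held 19.8, 4.19, 5.22, 7.05 and 10.5 CPM, so the skin was higher by a log2 fold change of 5.65 (SE 0.78, adjusted p = 2.98e-08). In ST2+ Tregs the log2 fold change was smaller, 3.66 (SE 0.68, adjusted p = 1.99e-05), from a higher spleen level. In skin all 5 mice had more Dgat2 in ST2+ than in ST2- Tregs and the groups did not overlap, but the difference did not pass the test (log2 fold change 0.84, SE 0.61, adjusted p = 0.819). With voom with quality weights it passed (adjusted p = 7.43e-04). Sebocytes of the skin express Dgat2 too. The sebocyte marker list summed to 79.1, 8.76, 19.1, 22.4 and 48.1 CPM in skin ST2- Tregs of mice 1 to 5 and to 44.8, 108, 38.4, 19.2 and 107 CPM in skin ST2+ Tregs. In ST2- Tregs the library with the highest Dgat2, of mouse 2, had the lowest sum, while in ST2+ Tregs the library of mouse 2 had the highest of both. The part of sebocytes in the Dgat2 values was not tested. All 8 genes of the list had counts in skin ST2- Tregs and 6 in skin ST2+ Tregs.

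Outside the skin Dgat2 was called between ST2+ and ST2- Tregs of lungs. It was at 93.9, 111, 94.6, 100.3 and 59.4 CPM in lung ST2+ and at 3.88, 15.005, 13.2, 6.78 and 5.28 CPM in lung ST2- Tregs. The groups did not overlap, and ST2+ was higher in 5 of 5 mice (log2 fold change 3.37, SE 0.75, adjusted p = 0.00891). Without mouse 4 the adjusted p was 0.119. In spleen the values were 106, 34.7, 82.0, 67.6 and 48.3 CPM in ST2+ Tregs, again above every ST2- library. That difference had a similar size (log2 2.83, SE 0.72) with adjusted p = 0.0577, and an adjusted p of 0.0160 with mouse as a replicate block. In colon it was at 131, 25.1 and 123 CPM in ST2+ Tregs of mice 1, 3 and 4 and at 24.4, 23.0, 2.59, 28.4 and 8.46 CPM in ST2- Tregs. The ST2+ library was higher in the 3 mice that gave both, the groups overlapped, and the difference did not pass the test (log2 fold change 2.401, SE 0.76, adjusted p = 0.421, unadjusted p = 0.00256). VAT varied between mice, at 143, 25.2, 7.35, 69.4 and 7.03 CPM in ST2+ and 42.8, 23.5, 5.81, 58.6 and 2.46 CPM in ST2- Tregs. Blood was lowest, with 17.6, 0, 0 and 0 CPM in ST2+ Tregs of mice 2 to 5 and 21.5, 1.25, 0.487, 0 and 6.44 CPM in ST2- Tregs of mice 1 to 5. Blood ST2+ Tregs were below spleen ST2+ Tregs in all 4 mice that gave both (log2 fold change -4.06, SE 0.90, adjusted p = 0.00290). In a fit of these 2 groups alone the adjusted p was 0.0787.

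Plin2 (ENSMUSG00000028494, chromosome 4, 86648386 to 86670060, minus strand, GRCm38) encodes the droplet coat protein found in most cells that store lipid, and Cpt1a (ENSMUSG00000024900, chromosome 19, 3322334 to 3385733, plus strand, GRCm38) encodes the gate of mitochondrial fatty acid oxidation. Both were higher in VAT than in spleen in both populations. Since both were higher there, the 250 bases before their RefSeq starts are shown (RefSeq, GRCm38.p6, 5′ to 3′ on the strand of the gene). The Plin2 stretch is chr4:86670060-86670309 on the minus strand and the Cpt1a stretch chr19:3323051-3323300 on the plus strand. Capitals mark AGGTCA on either strand (TGACCT on the printed strand), the half-site shared by many nuclear receptors, PPARs among them.
Plin2: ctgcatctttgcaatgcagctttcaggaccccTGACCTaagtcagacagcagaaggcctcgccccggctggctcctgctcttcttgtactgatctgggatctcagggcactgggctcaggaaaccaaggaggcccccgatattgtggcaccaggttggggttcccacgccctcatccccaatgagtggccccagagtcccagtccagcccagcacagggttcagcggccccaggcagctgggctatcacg
Cpt1a: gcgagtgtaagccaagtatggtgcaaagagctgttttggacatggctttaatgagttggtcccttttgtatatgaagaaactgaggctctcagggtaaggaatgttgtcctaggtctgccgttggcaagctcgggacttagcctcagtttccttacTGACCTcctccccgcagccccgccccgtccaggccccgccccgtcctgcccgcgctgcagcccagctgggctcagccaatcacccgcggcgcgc

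Each stretch held 1 half-site, 218 bases before the start in Plin2 and 94 bases before it in Cpt1a. The same letters occurred in 14.02% of the 32851 RefSeq promoters searched over the same length. Of the other members, Cd36 held 1 and Lipa 0, and the remaining 5 were not in the table of promoters.

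Plin2 was at 405, 774, 484, 395 and 713 CPM in VAT ST2+ Tregs of mice 1 to 5 and at 82.8, 188, 221, 302 and 339 CPM in VAT ST2- Tregs. The spleen held 42.8, 51.2, 44.1, 78.0 and 63.5 CPM in ST2+ and 41.9, 63.2, 51.3, 31.5 and 47.4 CPM in ST2- Tregs, so neither VAT group overlapped its spleen group. The VAT difference was called in ST2+ Tregs (log2 fold change 3.31, SE 0.51, adjusted p = 1.49e-06) and in ST2- Tregs (log2 fold change 2.27, SE 0.49, adjusted p = 0.00118), and both calls were kept under all 16 alternatives. Within VAT, ST2+ exceeded ST2- Tregs in 5 of 5 mice and the 5 highest values were all ST2+. This difference did not pass the test (log2 fold change 1.29, SE 0.47, adjusted p = 0.116), and with mouse as a replicate block it did (adjusted p = 0.0433). Blood ST2+ Tregs held 43.6, 50.1, 48.4 and 71.4 CPM and blood ST2- Tregs 0, 24.4, 25.8, 14.3 and 19.3 CPM, without overlap. The adjusted p was 0.0595, and 0.0379 with the block. With the block, Plin2 was also called lower in blood than in spleen ST2- Tregs (adjusted p = 0.0259, 0.0900 without it) and higher in colon than in spleen ST2- Tregs (adjusted p = 0.0302, 0.0693 without it).

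Adipocytes carry much Plin2, Cd36, Fabp4 and Lpl. Of the adipocyte list, Adipoq, Cidec and Lep were at 0 in all 10 VAT libraries, and Plin1 had counts in 1 of them, at 1.45 CPM. The list of 10 genes summed to 6.48, 0, 0, 0 and 0 CPM in VAT ST2+ Tregs of mice 1 to 5 and to 8.07, 0, 9.20, 2.67 and 6.39 CPM in VAT ST2- Tregs. In central lung Tregs the same sum reached 29.5 CPM, with counts for 2 of the 10 genes. Adipoq, Cidec and Lep were at 0 there, and Plin1 was at most at 0.502 CPM. In the VAT ST2+ libraries of mice 2 to 5 every gene of the list was at 0, and Plin2 was at 395 to 774 CPM there. Macrophages express Plin2 as well. Their summed markers were 80.4 to 235 CPM in VAT ST2+ and 0 to 113 CPM in VAT ST2- Tregs. The part of adipocytes in Plin2, Cd36, Fabp4 and Lpl, and of macrophages in Plin2, was not tested.

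Cpt1a was at 183, 207, 192, 145 and 142 CPM in VAT ST2+ and 220.3, 172, 205, 162 and 219.9 CPM in VAT ST2- Tregs. Spleen libraries held 63.5 to 106 CPM in ST2+ and 65.0 to 99.5 CPM in ST2- Tregs, below every VAT library of the same population. Both differences were called, in ST2+ Tregs (log2 fold change 0.97, SE 0.28, adjusted p = 0.0118) and in ST2- Tregs (log2 fold change 1.31, SE 0.28, adjusted p = 8.74e-04). The first was lost without mouse 2 (adjusted p = 0.0770) and with all 70 libraries (0.0925). Lung ST2+ Tregs held 164, 195, 167, 152 and 102 CPM, which missed the threshold against spleen (adjusted p = 0.0703) and passed it with the replicate block (adjusted p = 0.0422). Blood ST2+ Tregs were uneven at 149.5, 237, 159.9 and 80.0 CPM, against 63.2 to 99.9 CPM in blood ST2- Tregs (adjusted p = 0.0646, 0.0463 with the block). Colon Tregs stayed at 78.1 ± 16.7 CPM (SD, n = 3) and 84.2 ± 43.7 CPM (SD, n = 5) in ST2+ and ST2- Tregs.

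Lipa (ENSMUSG00000024781, chromosome 19, 34492318 to 34527474, minus strand, GRCm38) encodes lysosomal acid lipase, which hydrolyses cholesteryl esters and triacylglycerol taken into the lysosome. Its order of tissues was unlike that of the other members, with blood ST2- Tregs highest and skin ST2- Tregs lowest. Blood ST2- Tregs held 286, 221, 221, 208 and 220.0 CPM and spleen ST2- Tregs 141, 122, 113, 117 and 145 CPM. These did not overlap and the difference was called (log2 fold change 0.86, SE 0.21, adjusted p = 0.00864), with an adjusted p of 0.0591 without mouse 3. Blood ST2+ Tregs, at 136, 211, 98.6 and 114 CPM in mice 2 to 5, were higher than spleen ST2+ Tregs at 74.6 to 93.7 CPM (log2 fold change 0.76, SE 0.23, adjusted p = 0.0342). That call was lost without mouse 2 (0.131), 3 (0.341) and 5 (0.0804), adjusted p in parentheses, and with voom with quality weights (0.102), in a fit of the 2 groups alone (0.0830) and with sorted cells as a covariate (0.253). Skin ST2- Tregs held 47.9, 104, 92.5, 70.6 and 75.05 CPM, all below the spleen (log2 fold change -0.72, SE 0.22, adjusted p = 0.00787), and lost the call without mouse 1 (0.0697) and 5 (0.0619).

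Lipa was lower in ST2+ than in ST2- Tregs of lungs, at 135, 76.4, 139, 75.6 and 83.3 CPM against 179.9, 149, 221, 173 and 184 CPM. Each of the 5 mice showed this direction and the groups did not overlap (log2 fold change -0.83, SE 0.21, adjusted p = 0.0361). The call was lost without mouse 2 (0.132), 3 (0.116), 4 (0.186) and 5 (0.284), adjusted p in parentheses, and with all 70 libraries (0.0924). In spleen ST2+ Tregs held 74.6 to 93.7 CPM and ST2- Tregs 113 to 145 CPM, lower in 5 of 5 mice (log2 fold change -0.63, SE 0.21, adjusted p = 0.412). In blood the 4 mice with both libraries showed the same direction (log2 fold change -0.73, SE 0.23, adjusted p = 0.0513), which passed with the replicate block (adjusted p = 0.0418). In colon and skin the log2 differences were 0.03 and 0.20, neither called.

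**Figure D2:**
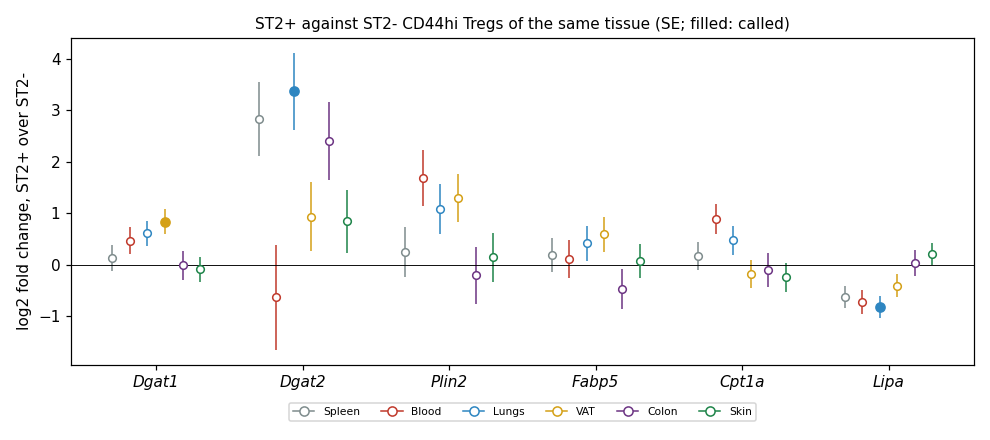
Log2 fold change of ST2+ over ST2- CD44hi Tregs (vertical axis, with SE) of 6 members, 1 point per tissue. Filled points mark the 3 calls, Dgat2 in lungs at 3.37, Lipa in lungs at -0.83 and Dgat1 in VAT at 0.83.

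Dgat1 was the member called between ST2+ and ST2- Tregs of VAT. The ST2+ values, 376, 361, 465.6, 422 and 384 CPM, all lay above the ST2- values, 149, 227, 265, 251 and 236 CPM, and all 5 mice had the higher level in ST2+ Tregs (log2 fold change 0.83, SE 0.24, adjusted p = 0.0380). The call was lost without mouse 1 (0.0748), 3 (0.155), 4 (0.0924) and 5 (0.152), adjusted p in parentheses, and with all 70 libraries (0.0947) and without the 5 libraries high in endothelial markers (0.0504). The last of these settings drops the VAT ST2- library of mouse 3. In colon and skin the log2 differences were -0.01 (SE 0.28) and -0.09 (SE 0.24). Whether the ST2 difference itself varied between tissues was tested over the 6 tissues together. The smallest adjusted p of a member was 0.164 for Lipa, followed by 0.183 for Dgat2, and none of the 15 pairs of tissues gave a called difference for a member.

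The cytosolic binding proteins split into a steady and an uneven member, although their genes lie on the same chromosome. Fabp5 (ENSMUSG00000027533, chromosome 3, 10012548 to 10016607, plus strand, GRCm38) was counted in all 67 libraries, at 3.82 to 73.5 CPM, and Fabp4 (ENSMUSG00000062515, chromosome 3, 10204088 to 10208576, minus strand, GRCm38) in 28. Fabp5 was at 43.8, 61.9, 51.0, 68.4 and 73.5 CPM in VAT ST2+ Tregs against 46.2, 22.1, 29.7, 27.4 and 23.6 CPM in spleen ST2+ Tregs. These ranges overlapped between 43.8 and 46.2 CPM, and the difference was called (log2 fold change 1.0002, SE 0.34, adjusted p = 0.0369). It was lost without mouse 2 (0.154), 3 (0.0701), 4 (0.169) and 5 (0.0973), adjusted p in parentheses, and with no gene filter (0.0658), with all 70 libraries (0.101) and in a fit of the 2 groups alone (0.050016). Skin ST2- Tregs held 70.5, 57.3, 42.7, 52.4 and 23.5 CPM and spleen ST2- Tregs 18.6 to 31.3 CPM (log2 fold change 0.91, SE 0.34, adjusted p = 0.0303), a call lost without mouse 1 (0.0961), 2 (0.123) and 4 (0.0992) and with no gene filter (0.0524), with all 70 libraries (0.0824) and without the 5 libraries high in endothelial markers (0.0733). Skin ST2+ Tregs at 44.6 to 64.4 CPM missed the threshold (adjusted p = 0.0582) and passed it with the replicate block (adjusted p = 0.0448).

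Fabp5 was the only member called between CD44hi and central Tregs. Spleen ST2- CD44hi Tregs held 30.3, 22.2, 31.3, 29.0 and 18.6 CPM and spleen central Tregs 15.8, 8.34, 16.3, 7.75 and 10.5 CPM, without overlap (log2 fold change 1.16, SE 0.34, adjusted p = 0.0286). In lungs the values were 19.4, 26.7, 21.9, 24.0 and 10.6 CPM and 18.0, 7.03, 6.56, 9.45 and 5.58 CPM (log2 fold change 1.12, SE 0.35, adjusted p = 0.0376). The CD44hi library was higher in 5 of 5 mice in both tissues. The spleen call was lost without mouse 2 (0.152), 3 (0.0608) and 4 (0.259) and the lung call without mouse 2 (0.268), 3 (0.178) and 4 (0.193), adjusted p in parentheses. The spleen call was also lost with no gene filter (0.0551) and with all 70 libraries (0.0981). The lung call was also lost with no gene filter (0.0704), with all 70 libraries (0.120), in a fit of the 2 groups alone (0.215), without the 5 libraries high in endothelial markers (0.0504) and without colon libraries (0.0540). Between central Tregs of lungs and spleen the member closest to the threshold was Dgat1, at 118 ± 31.3 CPM (SD, n = 5) and 67.6 ± 17.2 CPM (SD, n = 5) (log2 fold change 0.80, SE 0.25, adjusted p = 0.0614). With mouse as a replicate block it passed (adjusted p = 0.0498).

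**Figure D3:**
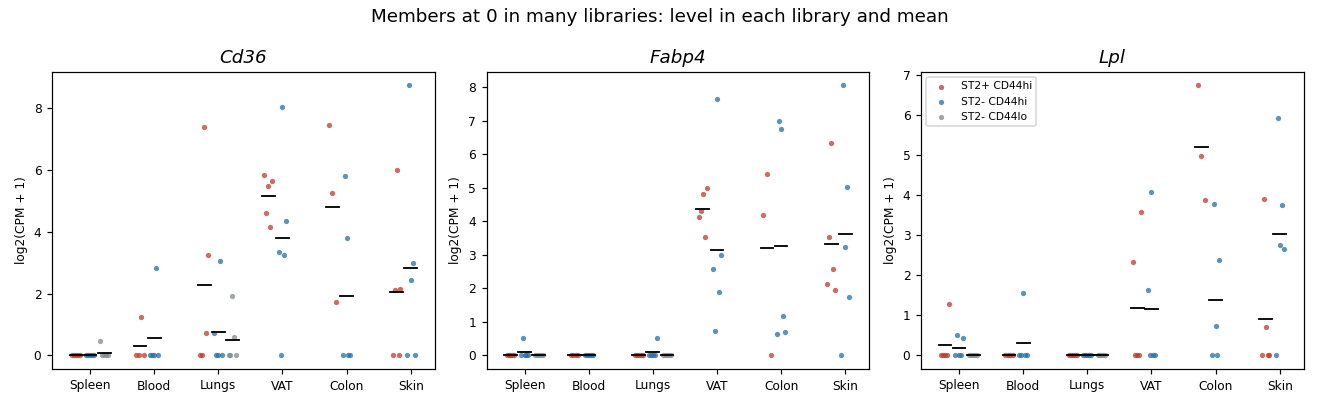
Level in each library, as log2(CPM + 1), of Cd36, Fabp4 and Lpl by tissue and population. Horizontal lines are means of the log2 values. In VAT ST2+ Tregs all 5 libraries hold Cd36 and Fabp4, while single libraries of VAT, colon and skin ST2- Tregs lie far above the rest.

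Cd36 (ENSMUSG00000002944, chromosome 5, 17781690 to 17888801, minus strand, GRCm38) encodes the fatty acid translocase and had counts in 30 of 67 libraries. Cd36 was at 0 in all 10 spleen libraries of CD44hi Tregs. In VAT ST2+ Tregs it was present in every library, at 56.7, 23.5, 44.1, 16.997 and 48.6 CPM in mice 1 to 5. In VAT ST2- Tregs it was at 9.12, 0, 265, 8.53 and 19.2 CPM, so that 1 library held most of the counts. Set against 3 counts over the 5 spleen libraries, the pooled VAT counts were at least 155-fold higher in ST2+ and at least 255-fold higher in ST2- Tregs (adjusted p = 0.0120 and 0.0118). Of the 629 counts in VAT ST2- Tregs, 548 came from mouse 3, so the 255-fold ratio rests mainly on 1 library. The median of that group was 9.12 CPM. The ST2- call was lost without mouse 3 (adjusted p = 0.127) and the ST2+ call without mouse 5 (0.0556).

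Elsewhere Cd36 rested on few libraries. Skin ST2- Tregs held 0, 428, 4.46, 6.99 and 0 CPM, skin ST2+ Tregs 0, 3.31, 63.8, 0 and 3.39 CPM and lung ST2+ Tregs 0, 0, 169, 0.669 and 8.54 CPM. In each of these groups 1 library was far above the other 4. Colon ST2+ Tregs held 175, 36.9 and 2.29 CPM in mice 1, 3 and 4, and colon ST2- Tregs 0, 55.5, 13.0, 0 and 0 CPM. The calls against spleen were lost without mouse 2 in skin ST2- Tregs (adjusted p = 0.121), without mouse 3 in skin ST2+ Tregs (0.206) and without mouse 1 in colon ST2+ Tregs (0.0986). In lung ST2+ Tregs the call was lost without mouse 1 (0.0578), 3 (0.343), 4 (0.0759) and 5 (0.0790) and with voom with quality weights (0.0755). In colon ST2- Tregs it was lost whichever mouse was left out and with voom with quality weights (0.141), with the replicate block (0.0761) and in a fit of the 2 groups alone (0.0573), adjusted p in parentheses.

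Fabp4 was at 0 in all blood and central libraries and had at most 1 count per library in spleen and lungs. VAT ST2+ Tregs held 16.6, 18.9, 27.1, 10.6 and 30.7 CPM in mice 1 to 5, above 0 in each. VAT ST2- Tregs held 4.91, 0.636, 199, 2.67 and 6.89 CPM, and mouse 3 stood apart as it did for Cd36. The values were 0.568, 126, 108, 1.27 and 0.604 CPM in colon ST2- Tregs, where mice 2 and 3 were high, and 0, 264, 8.29, 31.5 and 2.35 CPM in skin ST2- Tregs, where mouse 2 was high. Skin ST2+ Tregs held 3.41, 10.6, 79.9, 5.01 and 2.82 CPM and colon ST2+ Tregs 17.3, 41.3 and 0 CPM.

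Against 3 counts over the spleen group, pooled Fabp4 counts of ST2+ Tregs were at least 81.3-fold higher in VAT (adjusted p = 0.00816), 78.4-fold higher in skin (0.00352) and 71.6-fold higher in colon (0.0155). Of the 164 counts in skin ST2+ Tregs, 129 came from mouse 3. In ST2- Tregs the spleen held 1 count, and the ratio of pooled counts to it was 539 in VAT, with a 95% counting interval of 96.3 to 21339.9. Of the 444 counts in VAT ST2- Tregs, 410 came from mouse 3. The calls in ST2- Tregs had adjusted p = 0.00908 in VAT, 0.00519 in colon and 0.00123 in skin. Without mouse 3 the VAT ST2- value was 0.216. Without mouse 5 the VAT ST2+ value was 0.0515, and the colon ST2+ call was lost without mouse 3 (0.0811) and 5 (0.0572).

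Endothelial cells express both Cd36 and Fabp4, and their markers were high in the same libraries. The endothelial sum was 135, 84.6, 447, 98.1 and 115 CPM in VAT ST2- Tregs of mice 1 to 5, 84.6, 607, 486, 146 and 47.1 CPM in colon ST2- Tregs and 23.1, 498, 59.9, 37.7 and 30.5 CPM in skin ST2- Tregs. In each of these groups the highest Fabp4 value came from the library with the highest sum. Cdh5, the cadherin of endothelial junctions, was at 0, 0, 20.3, 0 and 1.48 CPM in VAT ST2- Tregs. All 8 genes of the list had counts in these 3 groups. In colon ST2+ Tregs of mice 1, 3 and 4 the sum was 192, 496 and 95.7 CPM, in skin ST2+ Tregs 26.4, 45.7, 173, 47.6 and 49.2 CPM and in lung ST2+ Tregs 175, 221, 333, 117 and 140.5 CPM, so the lung library of mouse 3, highest in Cd36, was highest here too. Colon ST2+ libraries also held the high macrophage sums given above. The part of either cell type in these calls was not tested. Pecam1, also on the list, was counted in all 67 libraries, at 19.9 to 398 CPM.

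In VAT ST2+ Tregs the endothelial sum was 123, 57.9, 101, 57.4 and 43.5 CPM, with counts for 6 of the 8 genes. Pecam1 made up 109, 56.7, 46.4, 41.8 and 30.7 CPM of it. In spleen ST2+ Tregs the sum was 64.5 to 184 CPM, with counts for 2 of the 8 genes, and Pecam1 alone was at 64.5 to 183 CPM. Cdh5 was at 0 in all 5 VAT ST2+ libraries, where Cd36 was at 16.997 to 56.7 CPM and Fabp4 at 10.6 to 30.7 CPM. Their macrophage and monocyte sum was 179, 235, 125, 80.4 and 209.6 CPM, above that of VAT ST2- Tregs at 113, 0, 92.0, 11.7 and 61.5 CPM in 5 of 5 mice. Csf1r, a macrophage receptor, was at 4.86, 52.7, 32.6, 0 and 0 CPM. The part of endothelial cells and of macrophages in these values was not tested. An alternative chosen after the values were seen left out the 5 libraries whose endothelial sum, Pecam1 included, was over 3 times the group median. Not left out by this rule were the mouse 3 libraries of lung ST2+ Tregs (sum 333, Pecam1 160, Cdh5 8.07 CPM) and colon ST2+ Tregs (496, 173 and 19.2 CPM). Without the 5 libraries, calls in VAT ST2- Tregs were kept for Cd36 (adjusted p = 0.0312) and Fabp4 (0.0322). Calls in skin ST2- Tregs were kept for both (0.0413 and 0.00108). Lost were Fabp4 in colon ST2- Tregs (adjusted p = 0.314), where Cd36 was then at 0, and Cd36 in skin ST2+ Tregs (0.0846). By contrast, leaving out all of mouse 3, the same VAT ST2- library included, lost both VAT ST2- calls (0.127 and 0.216). Leaving out mouse 2 lost Cd36 in skin ST2- Tregs (0.121). All groups share 1 estimate of the spread per gene, so libraries left out of other groups change these tests too. The calls kept therefore do not show what part endothelial cells had. Between ST2+ and ST2- Tregs of VAT neither gene passed the test in the main fit, with adjusted p = 0.906 for Cd36 and 0.788 for Fabp4. The libraries of both groups overlapped.

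**Figure D4:**
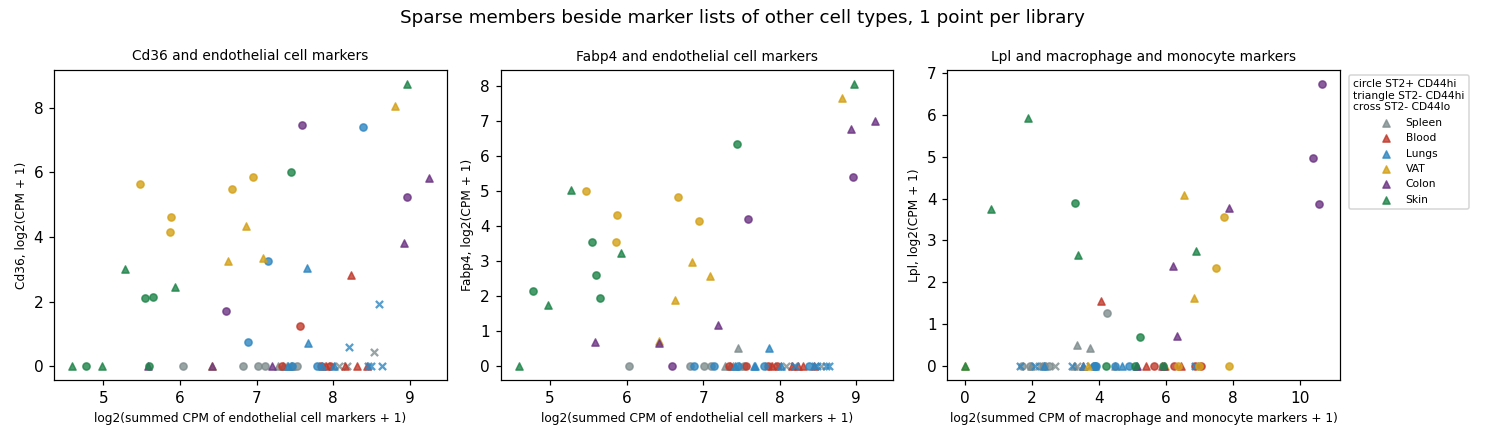
Cd36 and Fabp4 beside the summed CPM of 8 endothelial markers, and Lpl beside that of 10 macrophage and monocyte markers, both axes as log2(value + 1), 1 point per library. The 4 highest Fabp4 values lie at endothelial sums of 447 to 607 CPM, VAT ST2+ libraries hold Fabp4 at sums of 43.5 to 123 CPM, and the 3 colon ST2+ libraries lie at macrophage sums of 1325 to 1604 CPM.

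Lpl (ENSMUSG00000015568, chromosome 8, 68880491 to 68907448, plus strand, GRCm38) encodes a secreted lipase and had counts in 20 libraries. It was at 0 in every lung and every central library. The highest group mean was in colon ST2+ Tregs, at 106, 30.2 and 13.8 CPM in mice 1, 3 and 4, all above every colon ST2- and spleen library. Against spleen ST2+ Tregs, with 4 counts in 5 libraries, the ratio of pooled counts was 167 (adjusted p = 0.0262). The call was lost without mouse 1 (0.135), 3 (0.111) and 4 (0.0709), adjusted p in parentheses, and with DESeq2 (adjusted p = 0.0951). These are the 3 libraries with high macrophage markers, where C1qa was at 173, 92.9 and 119 CPM and Csf1r at 201, 73.7 and 118 CPM, against at most 21.7 and 52.7 CPM in other libraries. All 10 genes of the list had counts there. The same libraries held 937, 1121 and 347 CPM of fibroblast markers, against 6.82, 745, 242, 407 and 12.7 CPM in colon ST2- and at most 0.353 CPM in spleen ST2+ Tregs. Their colon epithelium markers summed to 243, 2599 and 801 CPM, against 72.1, 3486, 431, 109 and 217 CPM in colon ST2- and 122 to 203 CPM in spleen ST2+ Tregs. The part of macrophages, fibroblasts and epithelium in the Lpl difference was not tested. In VAT, Lpl was at 4.05, 0, 0, 0 and 10.9 CPM in ST2+ and 2.10, 0, 16.0, 0 and 0 CPM in ST2- Tregs, without a call against spleen. Skin ST2- Tregs held 0, 60.0, 5.74, 12.6 and 5.28 CPM of Lpl (adjusted p = 0.0156 against spleen), with an adjusted p of 0.0534 without the libraries high in endothelial markers.

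A wider list of 80 fatty acid genes, of which 63 passed the filter, placed the members in their pathway. Its calls come from the main fit and were not compared with the alternatives. Calls of tested genes were most frequent in skin, with 7 higher and 9 lower in ST2+ and 12 higher and 7 lower in ST2- Tregs against spleen, 25.4% and 30.2% of the list. In VAT 7 were higher and 0 lower in ST2+ Tregs (11.1%) and 4 higher and 0 lower in ST2- Tregs (6.35%). Colon had 4 higher and 1 lower in ST2+ (7.94%) and 6 higher and 1 lower in ST2- Tregs (11.1%). All these shares were near the shares of all genes called in the same comparisons, or below them. The median log2 fold change of the list was 0.25 in VAT ST2+ Tregs and 0.01 in skin ST2+ Tregs, beside -0.01 and -0.01 over all genes.

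Hilpda, a droplet protein that inhibits the lipase PNPLA2, was called in 11 comparisons, more than any other gene of the list. It was at 54.2 ± 18.9 CPM (SD, n = 5) in spleen ST2+ Tregs, 219 ± 22.3 CPM (SD, n = 5) in lungs, 470.2 ± 121 CPM (SD, n = 5) in VAT, 220.1 ± 24.8 CPM (SD, n = 3) in colon and 297 ± 55.3 CPM (SD, n = 5) in skin. All 4 tissues were higher than spleen in both populations, with the largest difference in VAT ST2+ Tregs (log2 fold change 3.11, SE 0.24, adjusted p = 1.36e-15). It was also higher in ST2+ than in ST2- Tregs of lungs (log2 fold change 0.98, SE 0.22, adjusted p = 0.0110) and VAT (log2 fold change 0.76, SE 0.22, adjusted p = 0.0313), and in CD44hi than in central Tregs of lungs (log2 fold change 0.91, SE 0.23, adjusted p = 0.00564). The adipocyte droplet proteins Plin1, Plin4 and Cidec did not pass the filter.

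Of the 12 tested genes of glycerolipid synthesis, Agpat4 and Agpat3, which both encode acyltransferases of the step that makes phosphatidic acid, moved in opposite directions. Agpat4 was higher than spleen in all 7 comparisons that called it, among them skin ST2+ Tregs at 162 ± 38.1 CPM (SD, n = 5) against 29.2 ± 3.59 CPM (SD, n = 5) (log2 fold change 2.47, SE 0.31, adjusted p = 1.77e-09). Agpat3 was lower in all 4 that called it, among them skin ST2- Tregs at 79.6 ± 14.4 CPM (SD, n = 5) against 213 ± 30.0 CPM (SD, n = 5) (log2 fold change -1.42, SE 0.14, adjusted p = 3.37e-12). Gpat3, which makes the substrate of these enzymes, was called higher in 3 comparisons at low levels, up to 14.4 ± 4.09 CPM (SD, n = 5) in skin ST2- Tregs. Agpat5 was higher in blood ST2+ Tregs than in blood ST2- Tregs (log2 fold change 0.90, SE 0.18, adjusted p = 5.91e-04).

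Among the 8 tested regulators, Pparg was at 258 ± 64.9 CPM (SD, n = 5) in VAT ST2+ Tregs, against 37.6 ± 29.0 CPM (SD, n = 5) in VAT ST2- and 21.1 ± 12.2 CPM (SD, n = 5) in spleen ST2+ Tregs. The VAT libraries of ST2+ Tregs, at 178 to 328 CPM, did not overlap those of ST2- Tregs, at 0 to 75.7 CPM. The difference between ST2+ and ST2- Tregs of VAT did not pass the test (log2 fold change 2.78, SE 0.99, adjusted p = 0.106). Pparg was called higher in VAT than in spleen in ST2+ Tregs (log2 fold change 3.61, SE 1.03, adjusted p = 0.0120), and in ST2- Tregs (adjusted p = 0.00104), whose spleen libraries held at most 1.76 CPM. In spleen it was higher in ST2+ than in ST2- Tregs (adjusted p = 0.0449). Rxra, the partner of the PPARs in binding DNA, was called in 3 comparisons, among them skin ST2- Tregs at 66.3 ± 19.98 CPM (SD, n = 5) against 7.91 ± 5.12 CPM (SD, n = 5) (log2 fold change 3.06, SE 0.52, adjusted p = 3.06e-06). Lrp1, a lipoprotein receptor also made by macrophages and fibroblasts, was called in 5 comparisons and reached 15.1 ± 9.42 CPM (SD, n = 3) in colon ST2+ Tregs. Dbi, which binds acyl-CoA, was called in 3, with at most 122 ± 20.4 CPM (SD, n = 3) in colon ST2+ Tregs.

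Of the 14 tested genes of mitochondrial import and oxidation, 3 were called in each skin population, all lower, where 29.1% of all genes were called in ST2+ and 30.9% in ST2- Tregs. Hadh, Acaa2 and Acadl fell in ST2+ Tregs, and Hadh, Acaa2 and Cpt2 in ST2- Tregs, with log2 fold changes of -1.35 for Hadh and -0.83 for Acaa2 (adjusted p = 2.20e-07 and 1.21e-05). Acaa1a, a thiolase of peroxisomal oxidation, fell in both populations. In VAT ST2+ Tregs, Acadm and Etfb of the mitochondrial group were higher and 0 were lower. In lungs, Acadl and Acadvl were higher in CD44hi than in central Tregs, along with the droplet genes Bscl2 and Hilpda. The oxidation genes named here, other than Acadl, were chosen after their values were seen. Cpt1a itself was not called in skin, at 95.1 ± 20.3 CPM (SD, n = 5) in ST2+ and 113 ± 35.8 CPM (SD, n = 5) in ST2- Tregs.

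**Figure D5:**
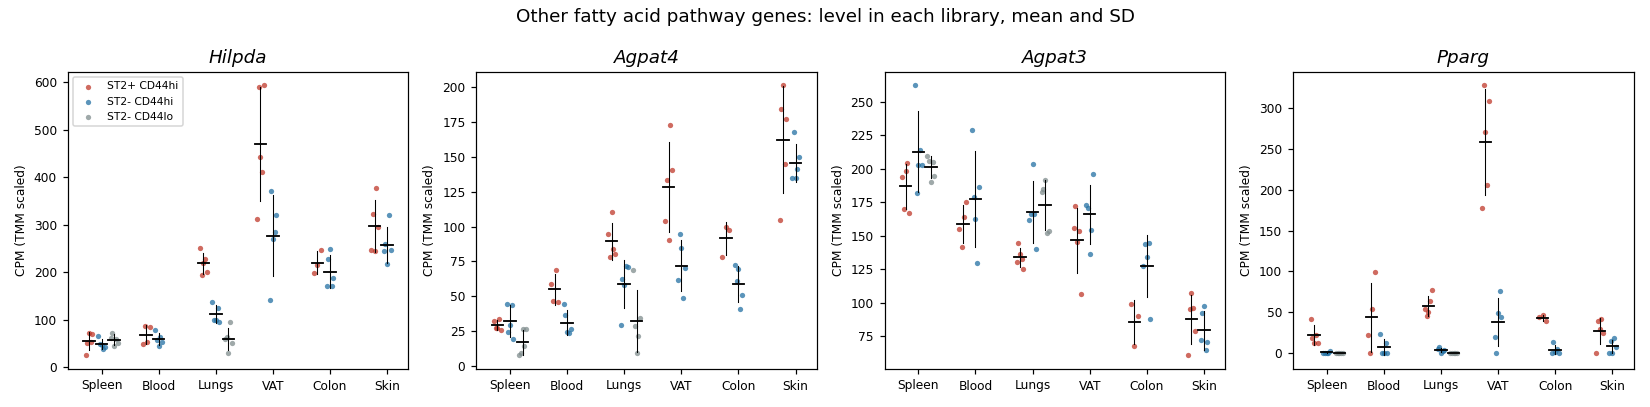
Level in each library (points, TMM-scaled CPM) of Hilpda, Agpat4, Agpat3 and Pparg by tissue and population, with the mean and SD of each group. Hilpda and Pparg are highest in VAT ST2+ Tregs, at means of 470.2 and 258 CPM, and Agpat3 falls from spleen to skin.

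Over all 91 pairs of groups, Dgat1 differed in 63, Fabp4 in 48, Dgat2 in 47, Fabp5 in 40, Plin2 in 37, Lipa in 36, Cd36 in 31, Lpl in 25 and Cpt1a in 24. Groups were ordered by their mean log2 CPM, and most groups next to each other did not pass the test. Of 13 such steps the test called 1 for Dgat2, from skin ST2- down to lung ST2+ Tregs, 1 for Fabp4, from VAT ST2- down to lung ST2- Tregs, and 0 for the other members apart from Dgat1.

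The genes most like each member were sought by Pearson's r of group mean log2 CPM over the 14 groups, as a description, since groups share mice. For Dgat1 these were D16Ertd472e (r = 0.983), Nr3c1 (r = 0.977) and Msrb3 (r = 0.973). Nr3c1 encodes the glucocorticoid receptor. For Dgat2 they were Prkcd (r = 0.932), Kdm2b (r = 0.929) and Cobl (r = 0.925), for Plin2 Atp2a2 (r = 0.917), Galnt3 (r = 0.914) and Dlg2 (r = 0.909), and for Fabp5 Bcl2a1c (r = 0.938), Bcl2a1d (r = 0.934) and Impa2 (r = 0.931). Bcl2a1c and Bcl2a1d are near-identical copies, so their counts are uncertain. For Cpt1a they were Zcchc10 (r = 0.901), Mprip (r = 0.834) and Tln1 (r = 0.830), and for Lipa Hp1bp3 (r = 0.912), Top2b (r = 0.891) and Atp6v1d (r = 0.879). For the members at 0 in many libraries they were Cmpk1 (r = 0.929), Acod1 (r = 0.921) and Ankar (r = 0.916) for Cd36, Klrb1b (r = 0.979), Eif5a (r = 0.971) and Sncg (r = 0.960) for Fabp4 and Cpxm2 (r = 0.975), Cygb (r = 0.975) and Afap1l2 (r = 0.974) for Lpl. Among the members themselves, Lipa had a negative r with each of the other 8, from -0.79 with Fabp5 to -0.21 with Cpt1a, and Cd36 and Fabp4 had the highest, at 0.85.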

How the data were processed

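Tregs were sorted straight into reaction buffer, amplified with SMART-Seq v4 and made into NexteraXT libraries, which were read as 58-base single reads. The authors aligned the reads to GRCm38 with STAR and deposited whole-number counts per Ensembl gene from HTSeq-count 0.4.1 (CASAVA 1.8.2 for base calls, per the submitters' processing notes). Whether counting used strand is not given in the sources used here, so reads of overlapping antisense genes cannot be told apart, and full-length amplification without molecular identifiers means that counting intervals and floors cover counting error only.

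From these counts, protein-coding genes (GENCODE M21 annotation) were kept where 10% of the 67 libraries or more reached 1 CPM, 13173 in all. They were fitted with edgeR 4.0.16 (R 4.3.3, TMM factors, quasi-likelihood test) as 14 groups without a term for mouse. The SE of a log2 fold change was worked back from the test, as its absolute value over the square root of the F statistic. Calls needed a fold change of at least 1.5 and an adjusted p of at most 0.05, Benjamini-Hochberg over all genes tested. The 3 libraries left out held 3582 to 488666 counts. No column of values stayed unused. A fold against a group at 0 took the counts pooled over libraries and set them against 3 counts over that group. Tests were checked on simulated counts of independent libraries, in which only well-counted genes were changed. That check does not cover libraries that share a mouse, or members at 0 in many libraries. Tables and figures were made with Python 3.11.15, numpy 2.4.6, pandas 2.3.3, scipy 1.17.1 and matplotlib 3.10.9. Promoters are those of RefSeq, and 4 of the 9 members were in that table.

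The members, the pathway and marker lists and the tests were chosen with earlier results of these data known. All 9 members were named, with the 3 genes most alike each of them, and of the pathway list the 8 genes called in most comparisons and, in each comparison, the 2 with the smallest adjusted p. Replicate numbers stand for the same mice. Over 27 pairs of libraries of 1 mouse and tissue, the mean correlation of deviations around group means was 0.0716 (6 pairs over 0.1), against -0.0175 over 108 pairs of different mice. Of 129 pairs of libraries within groups, 0 were identical. Alternatives were compared for the 9 members only. They were DESeq2 1.42.0, limma 3.58.1 voom with quality weights, the replicate block, median-of-ratios factors, no filter, all gene types, all 70 libraries, fits of 2 groups, sorted cells as a covariate and each mouse left out. Leaving out the 5 libraries high in endothelial markers, or the colon, was added after the data were seen.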

Additional observations from a re-analysis of the deposited data

Results flagged for a closer look

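In 25 of 104 groups of 4 or 5 libraries tested, 1 library lay farther from the others than Dixon's 95% limit allows, where chance gives about 1 in 20. Most were groups of Cd36, Lpl and Fabp4, in which the other libraries were at or near 0. The mouse 3 library of VAT ST2- Tregs stood apart for Cd36 at 265 CPM, Lpl at 16.0 CPM, Fabp4 at 199 CPM and Fabp5 at 47.0 CPM. The mouse 2 library of skin ST2- Tregs did so for Cd36 at 428 CPM, Lpl at 60.0 CPM and Fabp4 at 264 CPM. In skin ST2+ Tregs, mouse 3 held 63.8 CPM of Cd36 and 79.9 CPM of Fabp4, and mouse 2 held 13.9 CPM of Lpl. These libraries of mouse 3 in VAT and skin and of mouse 2 in skin ST2- Tregs are among the 5 with high endothelial sums, and the part of those cells was not tested.

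Cd36 also stood apart in lung ST2+ Tregs of mouse 3 at 169 CPM and in colon ST2- Tregs of mouse 2 at 55.5 CPM. At lower levels it did so in lung ST2- Tregs of mouse 4 at 7.31 CPM, in blood ST2- Tregs of mouse 4 at 6.12 CPM and in central lung Tregs of mouse 3 at 2.81 CPM. Blood ST2+ Tregs of mouse 4 held 1.38 CPM and central spleen Tregs of mouse 1 held 0.366 CPM of Cd36. Lpl was at 1.95 CPM in blood ST2- Tregs of mouse 3 and at 1.41 CPM in spleen ST2+ Tregs of mouse 5. Single counts of Fabp4 gave 0.440 CPM in lung ST2- Tregs of mouse 5 and 0.419 CPM in spleen ST2- Tregs of mouse 2.

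Among the members counted in most libraries, Dgat2 was at 17.6 CPM in blood ST2+ Tregs of mouse 2, with 0 in the other 3, and at 25.8 CPM in central spleen Tregs of mouse 2. Lipa was at 286 CPM in blood ST2- Tregs of mouse 1 and at 212 CPM in central lung Tregs of mouse 1.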

How the results depend on the processing

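No called member changed direction under an alternative that gave a value. Of the 54 member tests between ST2+ and ST2- Tregs, 3 were called, against 7 with DESeq2, 9 with voom with quality weights, 8 with the replicate block, 6 with fits of 2 groups and 0 to 5 with a mouse left out (0 without mouse 4, 5 without mouse 1). Of 18 tests of CD44hi against central Tregs, 2 were called, against 4 with DESeq2, 0 with no gene filter, 0 with all 70 libraries, 1 with fits of 2 groups, 1 without the 5 libraries high in endothelial markers, 1 without colon libraries and 0 to 2 with a mouse left out. Between central Tregs of lungs and spleen 0 were called, against 1 with DESeq2, 1 with voom, 1 with the replicate block, 1 with fits of 2 groups and 0 to 1 with a mouse left out (1 without mouse 1). The interaction called 0 members and 1, Lpl, with voom. Among the DESeq2 calls of CD44hi against central Tregs was Cd36 in spleen, at a log2 fold change of -15.0. It had 0 counts in the ST2- CD44hi group and 1 in the central group. The cause of the changes in these numbers of calls was not tested. Calls against spleen stayed between 12 and 21 in ST2+ Tregs (18 of 45 as reported) and between 13 and 19 in ST2- Tregs (17 of 45). With DESeq2 they included Cd36 in blood ST2+, blood ST2- and lung ST2- Tregs, at log2 fold changes of 17.4 to 19.4. These groups held 3, 12 and 15 counts, against 0 in the spleen group. With libraries of at most 220 cells and 1304560 or more counts, members under a few CPM are read from single counts, and a 0 does not show absence.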

Other observations

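The 3 libraries under the minimum total were in no comparison. The library of blood ST2+ Tregs of mouse 1, with 488666 counts, held 161 counts of Dgat1 and 79 of Lipa and 0 of the other 7 members. The library of colon ST2+ Tregs of mouse 5, with 62333 counts, held 19 counts of Dgat1, 6 of Plin2, 3 of Fabp5, 2 of Lipa, 2 of Cpt1a and 1 of Dgat2. In that of colon ST2+ Tregs of mouse 2, with 3582 counts, 1 count of Cpt1a was found among the members.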
